A study of Mus musculus with 12 samples.

Results

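Mitochondrial biogenesis is the making of new mitochondrial mass, and its known regulators form a chain from the nucleus to mitochondrial DNA. Coactivators of the PGC-1 family bind DNA-binding factors such as NRF1, GABP and the estrogen-related receptor ERR-alpha. Those factors switch on nuclear genes for respiration and for the proteins that copy and transcribe mitochondrial DNA. In muscle, PGC-1 alpha is best known for rising with endurance exercise and in oxidative fibres. The 10 genes described here were listed by name, by a rule that uses no measured value but was written with earlier results of these data known: the coactivator genes Ppargc1a, Ppargc1b and Pprc1, the factor genes Nrf1, Gabpa and Esrra, and the genes of the mitochondrial transcription machinery Tfam, Tfb1m, Tfb2m and Polrmt. All 10 were found, each in 1 row, among the 26271 loci of the authors' deposited table. Nrf1 here is nuclear respiratory factor 1, not the similarly named antioxidant factor gene Nfe2l1.

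The cells were C2C12, an established line of mouse myoblasts, which spent 24 h in 1 of 3 media. The high glucose medium held glucose at 25 mM, the low glucose medium held it at 5 mM, and the galactose medium had galactose at 10 mM and no glucose. Galactose reaches glycolysis by the slower Leloir pathway, and cells given it are known to rely more on respiration. All of them were DMEM with 1 mM pyruvate, 10% fetal bovine serum and 1% penicillin/streptomycin. PolyA RNA of 12 libraries was sequenced, 4 per group, and the table gives 1 pooled FPKM value per group (a fragment count scaled by transcript length and library size), plus a Cuffdiff test for every pairing of media. Values are therefore printed without SD or n, and depth is unknown. Whether a group's 4 libraries were separate cultures is not stated in the labels. A gene was called higher or lower where the deposited q was below 0.05. The 3 comparisons share their groups, so their values are given side by side and are not independent of each other.

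Myoblast identity was clear in every group, with all 9 myoblast markers at 1 FPKM or more. Their summed level was 1040 FPKM in high glucose, 693 FPKM in low glucose and 571 FPKM in galactose, and 8 of the 9 were called lower in low than in high glucose. In galactose all 9 were called lower than in high glucose, and all 9 lower than in low glucose. Of all tested loci, 18.2% were called lower in low glucose and 24.8% in galactose, both against high glucose. From low glucose to galactose the share called lower was 16.0%. The 5 endothelial and 5 adipocyte markers were all below 1 FPKM. Of the fibroblast markers Thy1 and Tcf21 were listed at 0 in all groups, and Pdgfra and Cd34 reached at most 1.72 FPKM and 10.5 FPKM. The macrophage marker Adgre1 was listed at 0 in all groups, and Cd68 was read from a locus it shares with the translation factor gene Eif4a1. The part of the falling myoblast markers in the results below was not tested, and in bulk RNA fewer cells of a type and less RNA per cell cannot be told apart.

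Promoter sequence is shown for 3 of the regulators, because they stand for the different outcomes below: Tfam and Pprc1 were called higher, and Polrmt was not called. The row of Polrmt shares its interval with other rows, and 0 of the 36 tested rows there were called in any comparison. RefSeq promoters (GRCm38.p6, the build called mm10) reach from 250 bases before to 50 bases after a gene's start and were held for 9 of the 10 genes, all but Ppargc1b. They were searched on both strands for the NRF1 consensus site, for CCGGAAGT, an ETS site of the kind GABP binds, and for TCAAGGTCA, the ERR site. Each run is given 5′ to 3′ on the gene's own strand, with matches in capitals.
Tfam: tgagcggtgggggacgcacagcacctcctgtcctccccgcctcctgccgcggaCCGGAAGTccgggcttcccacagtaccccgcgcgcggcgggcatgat
Polrmt: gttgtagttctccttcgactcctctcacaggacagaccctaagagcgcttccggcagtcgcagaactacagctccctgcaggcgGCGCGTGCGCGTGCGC
Pprc1: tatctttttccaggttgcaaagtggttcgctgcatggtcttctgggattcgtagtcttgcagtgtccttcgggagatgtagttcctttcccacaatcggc
The Tfam run is chr10:71238045-71238144 on the minus strand, the 100 bases before the start, and its ETS match lies 47 to 40 bases before the start. The Polrmt run is chr10:79746572-79746671 on the minus strand and includes the first 10 transcribed bases, since its 2 overlapping NRF1 matches begin 6 bases before the start and at the start. The Pprc1 run is chr19:46056439-46056538 on the plus strand, the 100 bases before the start, and holds no match. Starts here are those of RefSeq. In GENCODE M21 Pprc1 starts further upstream, at 46044886, and so does Tfam, at 71238280. The Pprc1 run lies inside the measured locus, which starts at 46056348, and the letters around its GENCODE start were not searched. Among the 10 promoters of the 9 genes (Nrf1 has 2), 1 held the NRF1 site, 1 the ETS letters and 0 the ERR letters. Of all 32851 promoters in that table, 4.6% held the NRF1 site, 3.89% the ETS letters and 0.423% the ERR letters. A match is a description of these letters, not a bound site.

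Most of the 10 genes were moderately expressed and moved little between media. Leaving out Ppargc1a, and Esrra whose row it shares with another gene, levels ran from 3.40 FPKM (Tfb1m in galactose) to 33.1 FPKM (Pprc1 in galactose). In high glucose the order from the top was Tfb2m, Pprc1, Polrmt, Nrf1, Gabpa, Tfam, Ppargc1b and Tfb1m. Whether neighbours in that order differ beyond the spread of libraries cannot be said from pooled values. The highest group value of each of these 8 genes stood between 1.07-fold (Nrf1) and 1.33-fold (Pprc1) above its lowest.

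**Figure D1:**
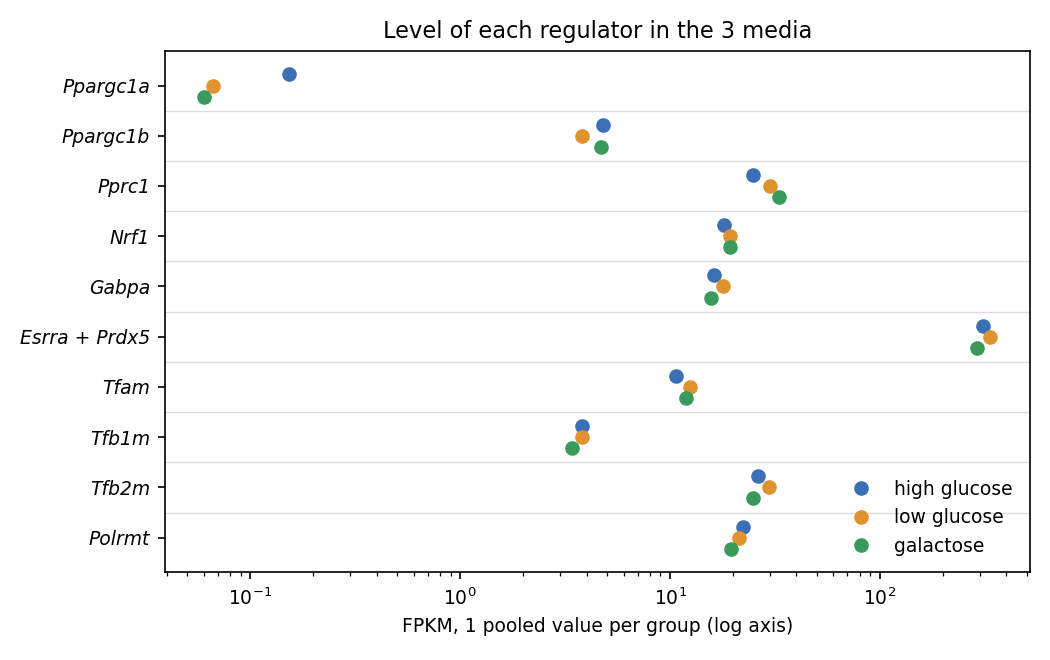
Each point is the pooled FPKM of 1 group (x axis, log scale) for 1 regulator (y axis), with the media in 3 colours. Ppargc1a lies below 0.2 FPKM in every medium, Pprc1 is lowest in high glucose and highest in galactose, and the row of Esrra also holds Prdx5.

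Of the 9 regulators tested from high to low glucose, 3 were called, 2 higher and 1 lower, where 36.4% of all 14699 tested loci were called (18.3% higher and 18.2% lower). The members' median log2 change was 0.12, against 0.0071 over all tested loci. From high glucose to galactose 2 of 9 were called, both higher, with 51.3% of 14812 tested loci called (26.5% higher). From low glucose to galactose 2 of 9 were called, 1 higher and 1 lower, with 33.3% of 14495 tested loci called (17.4% higher and 16.0% lower). The members' median log2 changes were -0.04 and -0.13 in these 2 comparisons, against 0.0058 and 0.01 over all tested loci. The median absolute log2 change of the 9 genes was 0.104 from high glucose to galactose, against 0.286 over all tested loci. In the other comparisons the members' median absolute changes were 0.141 and 0.166, against 0.189 and 0.17. The number of the 9 under the median of all tested loci was 6 for high against low glucose, 8 for high glucose against galactose and 5 for low glucose against galactose.

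**Figure D2:**
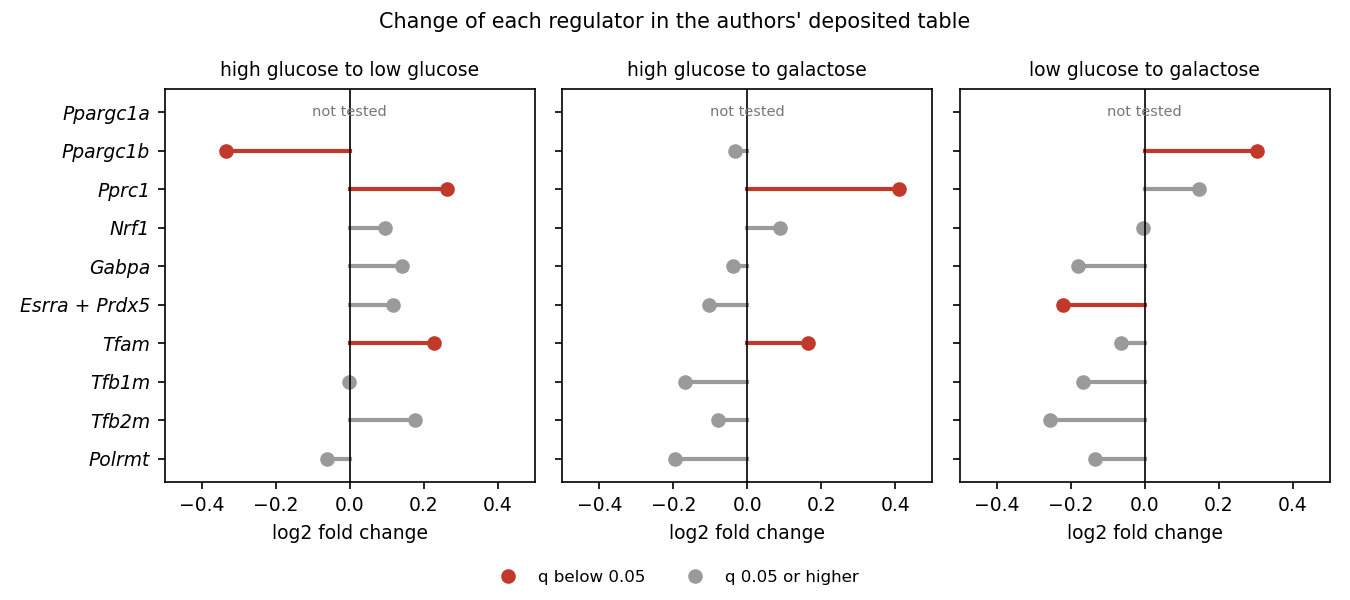
Bars and points show, on an x axis without unit, each regulator's log2 fold change from the authors' deposited table, with 1 panel per comparison, red where q was below 0.05. Red points stand for Ppargc1b, Pprc1 and Tfam in the first panel, Pprc1 and Tfam in the second, and Ppargc1b and the row of Esrra and Prdx5 in the last.

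The coactivators gave 3 different patterns. Pprc1, which encodes PRC, the family member known to respond to serum and growth signals, was listed at 24.9 FPKM in high glucose, 29.9 FPKM in low glucose and 33.1 FPKM in galactose. It was lowest in high glucose and highest in galactose. In the authors' deposited table its log2 change was 0.26 in low glucose (q = 0.000239) and 0.41 in galactose (q = 0.000239), a 1.33-fold rise that was the largest absolute change of any tested regulator. The step from low glucose to galactose, 0.15 on the log2 scale, was not called (q = 0.063).

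Ppargc1b encodes PGC-1 beta, a coactivator known for keeping up basal respiration and for driving lipid synthesis genes in liver. Its level was 4.81 FPKM in high glucose, 3.81 FPKM in low glucose and 4.70 FPKM in galactose, so the low glucose group was the one that stood apart. It was 1.26-fold lower in low than in high glucose (log2 change -0.34, q = 0.00232) and rose by 0.30 on the log2 scale from low glucose to galactose (q = 0.00587) in the authors' deposited table. High glucose and galactose differed by -0.03 on the log2 scale, which was not called (q = 0.825). The row prints an interval that also takes in Pde6a, a phosphodiesterase gene of photoreceptors, whose own row was at or below 0.0102 FPKM in every group.

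Ppargc1a, which encodes PGC-1 alpha, was barely detected. It was listed at 0.152 FPKM in high glucose, 0.0662 FPKM in low glucose and 0.0602 FPKM in galactose. The tool made no test of it in any comparison for lack of reads, so its listed fold changes are left out here. Its locus XLOC_017925, chr5:51454249-51553921 (mm10), ends 13.8 kb short of the gene's start in GENCODE M21 and still holds 98.5% of its exon bases.

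Of the DNA-binding factors, Nrf1 and Gabpa were not called in any comparison. Nrf1, a factor that binds promoters of cytochrome c and respiratory chain genes, was listed at 18.04 FPKM in high glucose, 19.3 FPKM in low glucose and 19.2 FPKM in galactose. The authors' deposited table gives it a log2 change of 0.09 in low glucose (q = 0.332), 0.09 in galactose (q = 0.373) and -0.0048 from low glucose to galactose (q = 0.967). The 3 groups of Nrf1 were the closest together of all the regulators.

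Gabpa encodes the ETS subunit that gives GABP, also named nuclear respiratory factor 2, its DNA contact. It was listed at 16.2 FPKM in high glucose, 17.8 FPKM in low glucose and 15.7 FPKM in galactose. Its largest log2 change in the authors' deposited table, -0.18 from low glucose to galactose, was not called (q = 0.2). Of its exon bases in GENCODE M21, 6.98% are also exon of the neighbour Atp5j, which encodes a subunit of ATP synthase and was listed at 219 to 244 FPKM. The labels name a library kit but not whether it kept strand, so reads from the shared bases may not be assigned to 1 gene.

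Esrra encodes ERR-alpha, an orphan nuclear receptor that PGC-1 coactivators bind. It has no value of its own here. Its row is a combined locus with Prdx5, a peroxiredoxin gene, listed at 309.8 FPKM in high glucose, 335.8 FPKM in low glucose and 288 FPKM in galactose. That is above at least 97.5% of the loci with 1 FPKM or more in each group, and how much of it comes from Esrra was not tested. The combined row was called lower from low glucose to galactose, with a log2 change of -0.22 (q = 0.0175) in the authors' deposited table, and not from high glucose to either medium (q = 0.259 and q = 0.321). Without this row the call count from low glucose to galactose is 1 of 8.

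Of the mitochondrial transcription machinery, Tfam was called and the other three genes were not. Tfam encodes the protein that packages mitochondrial DNA and opens its promoters. It was listed at 10.6 FPKM in high glucose, 12.4 FPKM in low glucose and 11.9 FPKM in galactose. Both other media were higher than high glucose, by log2 changes of 0.23 in low glucose (q = 0.00399) and 0.16 in galactose (q = 0.0471) in the authors' deposited table. The galactose call ended at q below 0.01, and low glucose and galactose did not differ by a call (log2 change -0.06, q = 0.497).

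Tfb2m, the transcription factor that works with the polymerase at mitochondrial promoters, was listed at 26.3 FPKM in high glucose, 29.7 FPKM in low glucose and 24.9 FPKM in galactose. Its fall of 0.26 on the log2 scale from low glucose to galactose was larger than either Tfam change and was not called (log2 change -0.26, q = 0.158 in the authors' deposited table). Its interval is shared with Cnst, which had its own row and was called lower from low glucose to galactose (log2 change -0.38, q = 0.000239 in the authors' deposited table).

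Tfb1m, its relative that methylates mitochondrial ribosomal RNA, was listed at 3.82 FPKM in high glucose, 3.81 FPKM in low glucose and 3.40 FPKM in galactose. The high and low glucose values were level, and the galactose value was lower by 0.17 on the log2 scale, which was not called (log2 change -0.17, q = 0.712 in the authors' deposited table). It shares 142 exon bases (3.93% of its own) with Tiam2, a Rac activator gene on the opposite strand, which in the authors' deposited table fell from 15.5 to 10.3 FPKM from high glucose to galactose (q = 0.000239).

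Polrmt encodes the single RNA polymerase of mitochondria. It was listed at 22.3 FPKM in high glucose, 21.4 FPKM in low glucose and 19.5 FPKM in galactose, the lowest value being that of galactose. No change was called, with log2 changes of -0.06 in low glucose (q = 0.949) and -0.20 in galactose (q = 0.829) in the authors' deposited table.

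Changes of like size had unlike test scores among these genes. From high glucose to galactose, Tfam with a log2 change of 0.16 had a deposited test score of 1.27 and was called, Tfb1m with -0.17 had a score of -0.32, and Polrmt with -0.20 had a score of -0.16. Expressed as log2 change per unit of score, a measure of how wide the tool took the error to be, Tfam stood at 0.129, Pprc1 at 0.137, Nrf1 at 0.156, Tfb1m at 0.531 and Polrmt at 1.24. The median of 4924 tested loci of 10 to 40 FPKM was 0.141, and 99.6% of them lay below Polrmt. Tfb1m, at 3.82 FPKM in high glucose and 3.40 FPKM in galactose, was below that range of levels.

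The row of Polrmt prints an interval of 672 kb on chromosome 10, from 79697305 to 80369637 (mm10), together with 44 other rows of the table. In GENCODE M21 the gene itself takes up 79736123 to 79746581 of it, and 45 other protein-coding genes fall in the interval. Of the 36 rows of that interval that were tested, 0 were called by Cuffdiff in each of the 3 comparisons, and 0 had an unadjusted p under 0.05. Their median absolute log2 change from high glucose to galactose was 0.257. The largest among them, chosen after the values were seen, was Gamt, an enzyme gene of creatine synthesis, which went from 26.8 to 12.8 FPKM with a log2 change of -1.06 and q = 0.609 in the authors' deposited table. Over the whole table, loci whose interval was printed in 1 row were called in 55.7% of 10594 cases from high glucose to galactose, those in 2 to 4 rows in 41.8% of 3899, those in 5 to 19 rows in 24.5% of 241, and those in 20 or more rows in 3.08% of 65. Their median absolute log2 changes were 0.289, 0.276, 0.286 and 0.244, while the median log2 change per unit of score was 0.147, 0.211, 0.385 and 1.51. The 65 loci in 20 or more rows come from only 3 intervals, and 36 of them are the tested rows of the Polrmt interval. They are therefore not separate cases. What makes the scores small in such intervals was not tested. The intervals of Pprc1, Nrf1, Tfam and Ppargc1a are printed in 1 row, those of Ppargc1b, Gabpa, Esrra and Tfb2m in 2, and that of Tfb1m in 4.

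**Figure D3:**
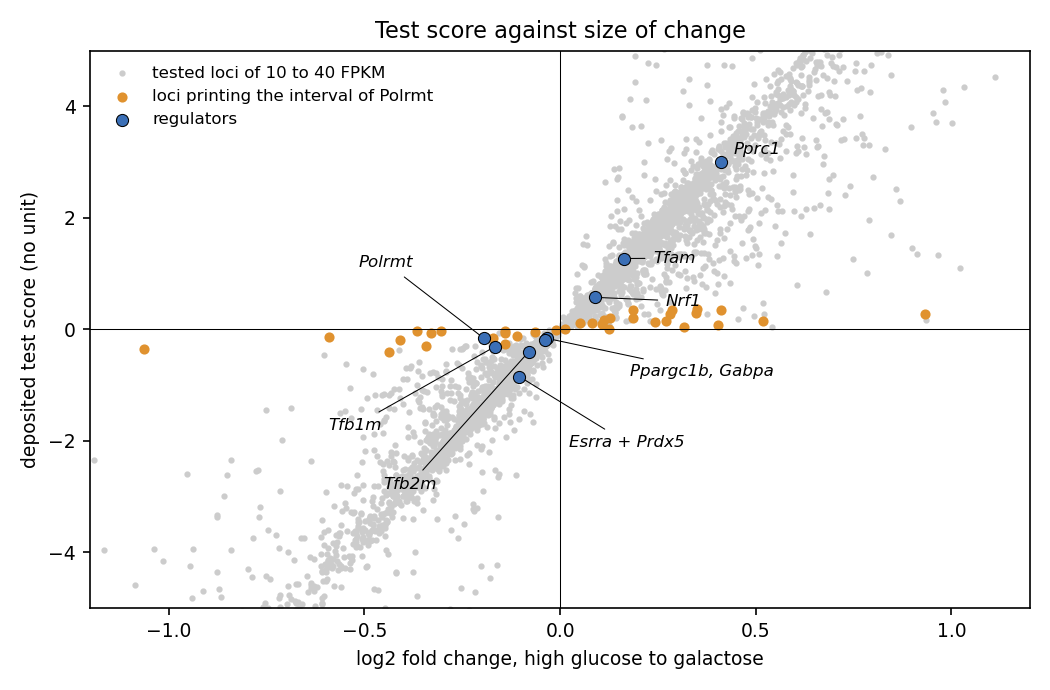
Each point is 1 locus, placed by its log2 fold change from high glucose to galactose (x axis) and its deposited test score (y axis, no unit); grey points outside the axes are not drawn. The loci of the interval of Polrmt lie along a nearly flat line near 0, and Tfam and Pprc1 lie on the steep main band.

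The RNA of the mitochondrial chromosome, which the mitochondrial transcription machinery makes, could not be read. Both rows of the mitochondrial chromosome had too many reads for the tool, were listed at 0 and were tested in 0 comparisons. The nuclear genes around the regulators were taken from 6 lists, and their counts are read against the shares of all tested loci called. Those were 18.3% higher and 18.2% lower from high to low glucose, 26.5% and 24.8% between high glucose and galactose, and 17.4% and 16.0% between low glucose and galactose. These lists were drawn up with earlier results of these data known, and no list was tested as a set. A combined locus supplies the value of 1 gene of the transcription and RNA handling list and of 3 genes of the target list.

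Calls in the list of mitochondrial transcription and RNA handling were all in the higher direction, and 12 of its 25 genes in low glucose and 9 in galactose were not called. From high to low glucose 13 of 25 were called higher and 0 lower (18.3% and 18.2% of all tested loci), with a median log2 change of 0.21. From high glucose to galactose 16 of 25 were called higher and 0 lower (26.5% and 24.8% of all tested loci), with a median of 0.31. Lrpprc, whose product stabilises mitochondrial messenger RNA, was listed at 19.6 FPKM in high glucose, 28.3 FPKM in low glucose and 39.97 FPKM in galactose. It was 2.04-fold higher in galactose than in high glucose in the authors' deposited table. Pus1, a pseudouridine synthase gene, went from 37.5 FPKM in high glucose to 51.7 FPKM in low glucose and 63.1 FPKM in galactose. Pnpt1, a gene of mitochondrial RNA import and decay, and Elac2, which trims transfer RNA ends, each rose by 0.37 in low glucose on the log2 scale of the authors' deposited table. Mterf3, a repressor of mitochondrial transcription, rose by 0.55 in galactose, and Hsd17b10, a subunit of mitochondrial RNase P, by 0.26 from low glucose to galactose on the same scale. Mterf1b also rose in galactose, from 0.616 to 0.913 FPKM, but it has a near-identical copy in Mterf1a and its reads may be split between them. From low glucose to galactose 7 of 25 were called higher and 0 lower (17.4% and 16.0% of all tested loci).

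Genes that keep up mitochondrial DNA were called at 23.5% in low glucose and 52.9% in galactose, against 36.4% and 51.3% of all tested loci. Of 17, low glucose had 4 called higher and 0 lower (18.3% and 18.2% of all tested loci), with a median of 0.06 on the log2 scale. In galactose there were 8 higher and 1 lower (26.5% and 24.8% of all tested loci), with a median of 0.19. Slc25a33, a carrier that brings pyrimidine nucleotides into mitochondria, was listed at 4.99 FPKM in high glucose, 8.44 FPKM in low glucose and 18.8 FPKM in galactose. It rose 3.76-fold from high glucose to galactose in the authors' deposited table, the largest rise of this list. Atad3a, a membrane protein gene tied to nucleoid organisation, went from 29.1 to 37.7 and 44.7 FPKM, and Twnk, the mitochondrial DNA helicase gene, from 9.84 to 11.7 FPKM in low glucose. Top1mt, the mitochondrial topoisomerase gene, rose by 0.29 in low glucose, and Primpol, a primase and polymerase gene, by 0.53 in galactose on the log2 scale of the authors' deposited table. Dna2, a helicase and nuclease gene also used in the nucleus, was the 1 that was lower, at 4.73 FPKM in high glucose and 3.61 FPKM in galactose. From low glucose to galactose 4 of 17 were called higher, among them Rrm2b (2.60 to 3.46 FPKM), a ribonucleotide reductase subunit gene, and 1 lower (17.4% and 16.0% of all tested loci).

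Known targets of NRF1, GABP and ERR-alpha were called at 21.6% in low glucose and 59.5% in galactose, against 36.4% and 51.3% of all tested loci. In low glucose 7 of 37 were called higher and 1 lower (18.3% and 18.2% of all tested loci), with a median of 0.07 on the log2 scale. In galactose 19 were called higher and 3 lower (26.5% and 24.8% of all tested loci), with a median of 0.18. The chaperonin gene Hspd1 went from 100.2 FPKM in high glucose to 149.5 FPKM in low glucose and 183 FPKM in galactose. Tomm70a, an import receptor gene of the outer membrane, went from 36.1 to 52.5 and 56.9 FPKM. From low glucose to galactose 10 were called higher and 2 lower (17.4% and 16.0% of all tested loci), 32.4% in all against 33.3%. Atp5g1, an ATP synthase subunit gene, rose by 0.42 and Cox17, a copper chaperone gene of cytochrome c oxidase, by 0.36 on the log2 scale of the authors' deposited table. Acadm, a fatty acid oxidation enzyme gene and a target of ERR-alpha, moved the other way, from 28.2 FPKM in high glucose to 21.8 FPKM in low glucose and 15.96 FPKM in galactose. Uqcrh, a subunit gene of complex III, fell from 139 to 109 FPKM from low glucose to galactose. Cycs, the cytochrome c gene, rose from 0.605 FPKM in high glucose to 0.961 FPKM in low glucose and 0.936 FPKM in galactose, but it has many processed copies in the genome, and its level is uncertain.

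Partners and inputs of the PGC-1 coactivators went both ways. Of 23 tested, low glucose had 7 called higher and 1 lower (18.3% and 18.2% of all tested loci), 8 higher and 2 lower in galactose (26.5% and 24.8%), and 4 higher and 5 lower from low glucose to galactose (17.4% and 16.0%). Lpin1, which encodes lipin 1, a partner of PGC-1 alpha, was listed at 1.03 FPKM in high glucose, 0.493 FPKM in low glucose and 0.326 FPKM in galactose, and fell 3.16-fold in galactose in the authors' deposited table. Mybbp1a, a repressor of PGC-1 alpha, went from 102 FPKM in high glucose to 138.5 FPKM in low glucose and 156 FPKM in galactose. The receptor genes Pparg and Ppard stood at 11.9 and 30.5 FPKM in high glucose and at 17.04 and 45.8 FPKM in galactose. Yy1, a factor that binds PGC-1 alpha, rose by 0.30 on the log2 scale in low glucose, and Kat2a, an acetyltransferase gene that restrains it, by 0.27 from low glucose to galactose in the authors' deposited table. Prkag1, a regulatory subunit gene of the energy sensor AMPK, fell from 67.8 to 53.6 FPKM from low glucose to galactose. The related receptor genes Esrrb, Esrrg and Ppara were not tested for lack of reads.

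**Figure D4:**
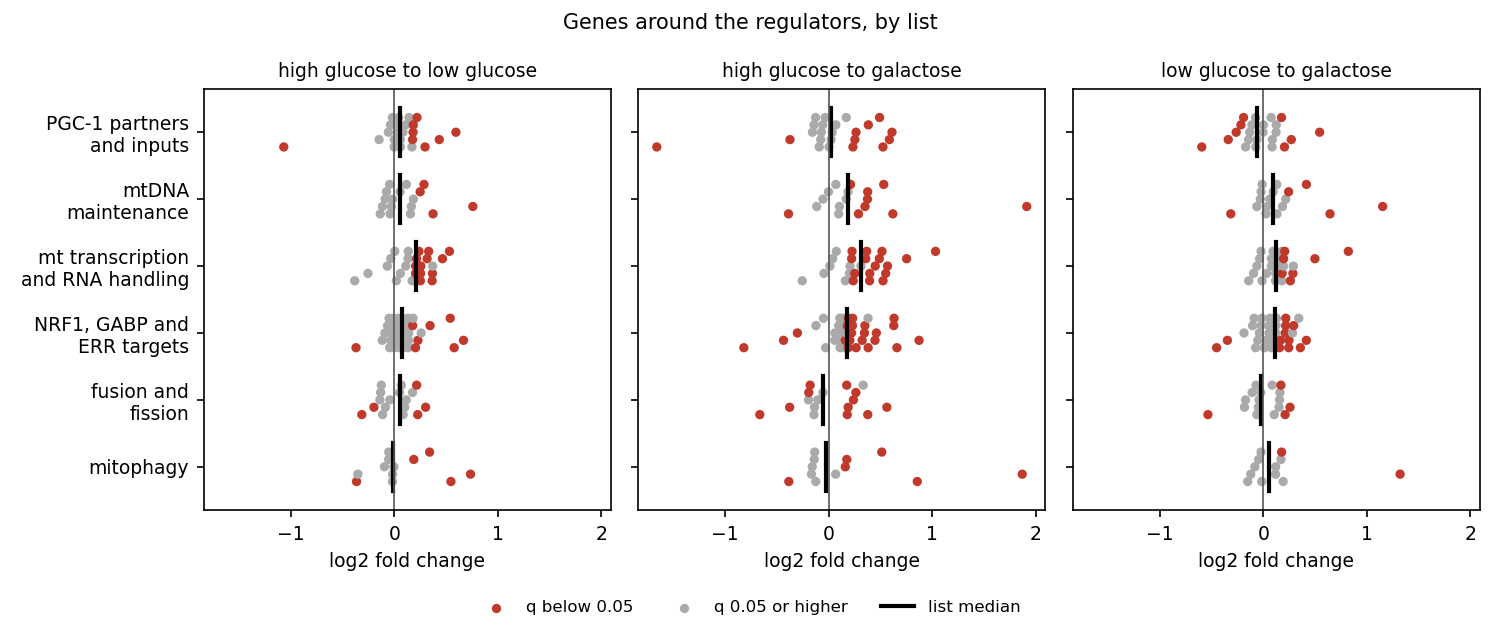
Points are single tested genes, arranged by list (y axis) and by log2 fold change (x axis, values of the authors' deposited table), red where q was below 0.05; vertical black bars mark medians. Points of mitochondrial transcription and RNA handling lie mostly right of 0, with medians of 0.21, 0.31 and 0.13 from left to right, and the point farthest right in galactose among the DNA maintenance genes is Slc25a33.

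Genes of mitochondrial shape and removal went both ways. Of 17 tested fusion and fission genes, low glucose had 3 called higher and 2 lower, galactose 7 higher and 4 lower, and there were 3 higher and 1 lower from low glucose to galactose. The list was called at 29.4%, 64.7% and 23.5%, against 36.4%, 51.3% and 33.3% of all tested loci, where 18.3%, 26.5% and 17.4% were higher and 18.2%, 24.8% and 16.0% lower. Mtfr1, a fission regulator gene, rose from 11.8 FPKM in high glucose to 14.5 FPKM in low glucose and 17.4 FPKM in galactose, while its relative Mtfr2 fell from 5.80 FPKM in high glucose to 3.66 FPKM in galactose. Another relative, Mtfr1l, stood at 43.0 FPKM in high glucose, 34.6 FPKM in low glucose and 38.9 FPKM in galactose. Mfn1, an outer membrane fusion GTPase gene, rose by 0.23 in low glucose, and the ubiquitin ligase gene March5 by 0.22 in low glucose and by 0.38 in galactose on the log2 scale of the authors' deposited table. Mief2, an adaptor gene for the fission protein DRP1, fell by 0.38 from high glucose to galactose, and the fission gene Mtfp1 rose by 0.21 from low glucose to galactose on the same scale. Of 12 tested mitophagy genes, low glucose had 4 called higher and 1 lower, galactose 5 higher and 1 lower, and there were 2 higher and 0 lower from low glucose to galactose. Against the same shares of all tested loci, this list was called at 41.7%, 50% and 16.7%. The receptor gene Sqstm1, which also serves general autophagy, went from 427 FPKM in high glucose to 624 FPKM in low glucose and 1560 FPKM in galactose. Optn, another autophagy receptor gene, went from 22.3 to 37.1 and 40.3 FPKM, and Bnip3, an outer membrane receptor gene, fell from 4.05 to 3.14 and 3.10 FPKM. Phb2, an inner membrane prohibitin gene, rose from 226.5 FPKM in high glucose to 287 FPKM in low glucose and 323 FPKM in galactose, and the autophagy receptor gene Tax1bp1 rose from 39.1 FPKM in low glucose to 44.2 FPKM in galactose.

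Near matches were sought for the 3 regulators with the largest absolute log2 change in any tested comparison, whether called or not. The search left out loci with predicted, Rik, Mir or Snor names. It covered 7604 other loci tested in all 3 comparisons, with 1 symbol and a mean of at least 5 FPKM. It took the nearest points in the plane of the changes from high glucose to low glucose and to galactose. This search rests on 3 group values per gene. Tfb2m, 1 of the 3 regulators, was not called in any comparison. Nearest to Pprc1 were Trub1, Camk2d and Ddx3x, with distances of 0.001, 0.0066 and 0.0067 on the log2 scale. For Ppargc1b they were Tmem205, Chpf2 and Vgll2 (0.0076, 0.019 and 0.0204), and for Tfb2m they were Hnrnpa1, Sirt1 and Pcbp3. Within 0.05 on the log2 scale lay 108 loci for Pprc1, 15 for Ppargc1b and 49 for Tfb2m, so the pattern of Ppargc1b had the fewest close matches of these 3. Ppargc1b itself was below 5 FPKM in every group, so loci of its own level were left out of the search.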

How the data were processed

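TopHat2 2.0.10, Cufflinks 2.2.0, Cuffdiff and build mm10 are named in the submitters' processing notes; their settings are not given in the sources used here. Libraries were made with a NEBNext Ultra kit, per the labels. The deposited table holds FPKM per group, the log2 fold change, a test score, a p-value and a q-value, all as the authors' tool wrote them, with 4 libraries pooled per group. The deposited q-value equals the Benjamini-Hochberg adjustment over all 44006 tested locus comparisons together, to within 5.26e-07. The lowest p, 5e-05, was shared by 9204 tests, so the lowest q is 0.000239. The deposited log2 fold change was within 0.001 of the log2 ratio of the values except in 75 tests, none of a regulator. Depth is unknown.

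A symbol was read from the row with the highest summed FPKM that lists it, with symbols of GENCODE M21 and older names from RefSeq. Interval starts are 0-based as deposited and are printed 1-based. Groups came from the sample labels; the series' design text, which describes other cells and another culture time, was not followed. The regulators and lists were chosen with earlier results of these data known. Named genes were all 10 regulators, up to 4 called genes per list and comparison with the largest absolute log2 change, and the 3 nearest loci of the 3 regulators with the largest change. The adjustment, a count of calls and a median were tested on simulated data, but the reading of rows and lists was not. Python 3.11.15, pandas 2.3.3, numpy 2.4.6 and matplotlib 3.10.9 were used.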

Additional observations from a re-analysis of the deposited data

How the results depend on the processing

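Alternatives were q below 0.01, a limit of 1 on the absolute log2 change, a limit of 1 FPKM on the higher of both group values, adjustment within each comparison, re-centring on the median of all tested loci, a pseudocount of 1 FPKM, and leaving out combined loci. The number of regulators called was 3 for high against low glucose, 2 for high glucose against galactose and 2 for low glucose against galactose. Under adjustment within each comparison the number of regulators called was the same. The 1 FPKM limit, re-centring and the pseudocount also left it the same, but could not have changed it. Every tested regulator was above 1 FPKM, and re-centring and the pseudocount leave the deposited q as it is. At q below 0.01 it was 3, 1 and 1. With the limit on the log2 change it was 0, 0 and 0, and all 18 list counts moved. Without combined loci it was 3, 2 and 1. No direction of a regulator turned under any of these, and only re-centring could have turned one. Of the 18 list counts, 8 moved by over 1.5 times at q below 0.01. Among them was that of mitochondrial transcription and RNA handling from low glucose to galactose, which fell from 7 to 4 of 25. Against high glucose the counts of this list fell by less than 1.5 times, from 13 to 10 in low glucose and from 16 to 13 in galactose. Shares of all tested loci called at q below 0.01, or with the limit on the log2 change, are not given here. Whether the regulator and list counts fell more than those shares cannot be said. Adjustment within each comparison moved 1 list count by over 1.5 times, fusion and fission from high to low glucose, from 5 to 3. Some other list counts changed by less. The targets went from 12 to 10 from low glucose to galactose, and mitochondrial DNA maintenance from 4 to 3 in low glucose. Partners and inputs of the PGC-1 coactivators went from 10 to 11 in galactose. No paired analysis was possible because the table holds 1 pooled value per group, and for the same reason no library could be left out.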
